A study of Mus musculus with 6 samples.

Results

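Contractile and actin-binding genes were followed in Sertoli cells that lack Pa1. The set holds 33 genes: the actins, the proteins that bundle, coat or cap actin filaments in smooth muscle, the linkers of focal adhesions, the regulators Srf and Myocd, and the Sertoli cell actin bundlers Espn and Eps8. Its members were chosen by name, and all 33 were found by symbol among the 28262 genes of the count table. RNA was sequenced from Sertoli cells of 20-day-old C57BL/6 mice, with 3 libraries from Pa1F/F cells, which carry floxed Pa1 alleles and served as the control, and 3 libraries from Pa1-/- cells, in which the same alleles were deleted by a Cre recombinase under the Amh promoter. The cells of both genotypes were purified by enzymatic digestion of testes, cultured at 34 °C and otherwise untreated. Amh is a Sertoli cell gene, so other cell types of the preparation would keep Pa1. Neither the labels nor the methods say how many animals were pooled for a library, and p-values measure the spread between these libraries, which may be in part technical. Reads of Pa1 were not analysed here, and the genotypes are those of the labels.

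In smooth muscle, alpha-actin filaments are coated by tropomyosin, caldesmon and calponin, anchored through alpha-actinin, filamin and vinculin, and transcribed from genes that the serum response factor SRF binds at a DNA element called the CArG box. SRF acts with myocardin in smooth muscle and with the myocardin-related MRTF proteins in other cells, where free actin monomers hold MRTF in the cytoplasm. In the testis, peritubular myoid cells form the contractile layer around each tubule, whereas Sertoli cells hold their actin in ectoplasmic specializations, hexagonal bundles beneath the plasma membrane at the blood-testis barrier and around spermatid heads, which espin cross-links and EPS8 caps and bundles.

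Total counts on genes lay between 13203757 and 16231443 per library, and a floor of 3 counts came to 0.185 to 0.227 CPM, the unit of counts scaled by the library total. The replicates were unevenly spaced. The chi-square of their counts over genes, divided by its degrees of freedom, was 2.24 for Pa1F/F replicates 1 and 3, as compared with 20.3 and 18.7 for the pairs with replicate 2. It was 1.68 for Pa1-/- replicates 1 and 2, as compared with 31.6 and 29.6 for the pairs with replicate 3. All pairs differed by more than counting noise, which separate libraries of 1 preparation would also do, and the labels do not say whether the close pairs share one. Each library entered the test as the replicate that its label gives. With the close pairs summed, 11 members were higher in place of 19, and 708 of all genes in place of 2718. For members whose call depended on Pa1-/- replicate 3, the value without it is given, and the Pa1-/- group is then the close pair alone. Of 12 Sertoli cell markers, the transcription factor gene Sox9 stood at between 3172 and 4983 normalized counts in the 6 libraries and Wt1 at between 4493 and 6084, whereas Rhox5 and Trf held at most 15.5 normalized counts in any library. A normalized count is a count over its effective library size, scaled to the mean library.

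The promoters of 4 members hold an exact CArG box, and they are shown because contractile genes are textbook targets of SRF. RefSeq promoters (GRCm38.p6, 250 bases before to 50 after the start) were found for 28 of the 33 members, 34 promoters in all. The missing members were Actb, Actg2, Tagln, Myocd and Eps8. Both strands were searched, and the window on the gene's strand is printed in lower case with each CArG box in capitals. The Cnn2 window is chr10:79988480-79988599 (+), the Actg1 window is chr11:120348496-120348615 (-), the Srf window is chr17:46556163-46556282 (-) and the Vcl window is chr14:20929158-20929247 (+).
Cnn2: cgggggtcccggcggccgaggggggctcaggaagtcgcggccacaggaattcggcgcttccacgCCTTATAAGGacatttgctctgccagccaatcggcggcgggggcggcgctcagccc
Actg1: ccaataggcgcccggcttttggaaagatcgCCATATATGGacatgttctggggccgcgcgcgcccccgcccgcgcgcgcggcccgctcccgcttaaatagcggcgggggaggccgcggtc
Srf: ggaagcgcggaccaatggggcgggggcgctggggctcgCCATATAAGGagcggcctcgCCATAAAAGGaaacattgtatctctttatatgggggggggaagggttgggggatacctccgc
Vcl: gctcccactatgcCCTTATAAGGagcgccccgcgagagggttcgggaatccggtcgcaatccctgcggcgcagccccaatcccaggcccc
With the base just before the start counted as -1, the box began at -56 in Cnn2, at -90 in Actg1 and at -227 in Vcl, and Srf held a pair of boxes that began at -82 and -62 and did not overlap. An exact box was in 11.8% of the members' promoters, in 1.30% of the promoters of tested genes and in 1.63% of all 32851 promoters of the same length.

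The promoter of Acta2, the smooth muscle alpha-actin gene, held no exact CArG box in this window. It held 2 elements that differ from the box by 1 letter, in capitals below, which began at -84 and -34. Its window is chr19:34255374-34255523 (-).
Acta2: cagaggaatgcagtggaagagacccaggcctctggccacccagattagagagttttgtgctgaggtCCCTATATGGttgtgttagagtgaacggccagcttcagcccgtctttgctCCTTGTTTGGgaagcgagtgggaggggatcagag
An element with 1 letter changed was in 38.2% of the members' promoters, as compared with 19.9% of all promoters. The AP-1 element TGANTCA, searched in the same promoters, was in those of Cald1, Zyx and Actn4, or 8.82% of the members' promoters. It was in 5.34% of the promoters of tested genes and in 7.81% of all promoters. These matches are letters in a window and carry no measurement of binding.

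Of the 32 members that passed the filter on low counts, 19 were higher and 3 were lower in Pa1-/- Sertoli cells at an adjusted p-value under 0.05 by edgeR's quasi-likelihood test, and 10 did not pass. Over all 14919 tested genes, 18.2% were higher and 17.1% were lower by the same rule. Where a log2 fold change of 1 or more in size was also asked, 9 members were higher and 1 was lower, as compared with 5.44% and 6.56% of all tested genes. The median log2 fold change was 0.71 over the 32 members and 0.00 over all tested genes. The normalized counts of the 3 Pa1-/- libraries lay above those of the 3 Pa1F/F libraries for 21 members and below them for 3, while 26.3% and 26.1% of all tested genes were separated in these directions. Without Pa1-/- replicate 3, 22 members were higher and 4 were lower, with 21.9% and 21.2% of 15354 tested genes called in these directions. Past the fold threshold, 8 members were then higher and 4 were lower, as compared with 5.60% and 7.92% of all tested genes, and the median log2 fold change of the members was again 0.71. Tagln, which encodes transgelin (SM22), was the member left out by the filter, with 10, 2 and 3 counts in Pa1F/F and 7, 5 and 14 counts in Pa1-/- replicates 1 to 3. Tagln overlaps Pcsk7 on the opposite strand, and the strand setting of the counting is not given in the sources used here, so these few counts are uncertain.

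**Figure D1:**
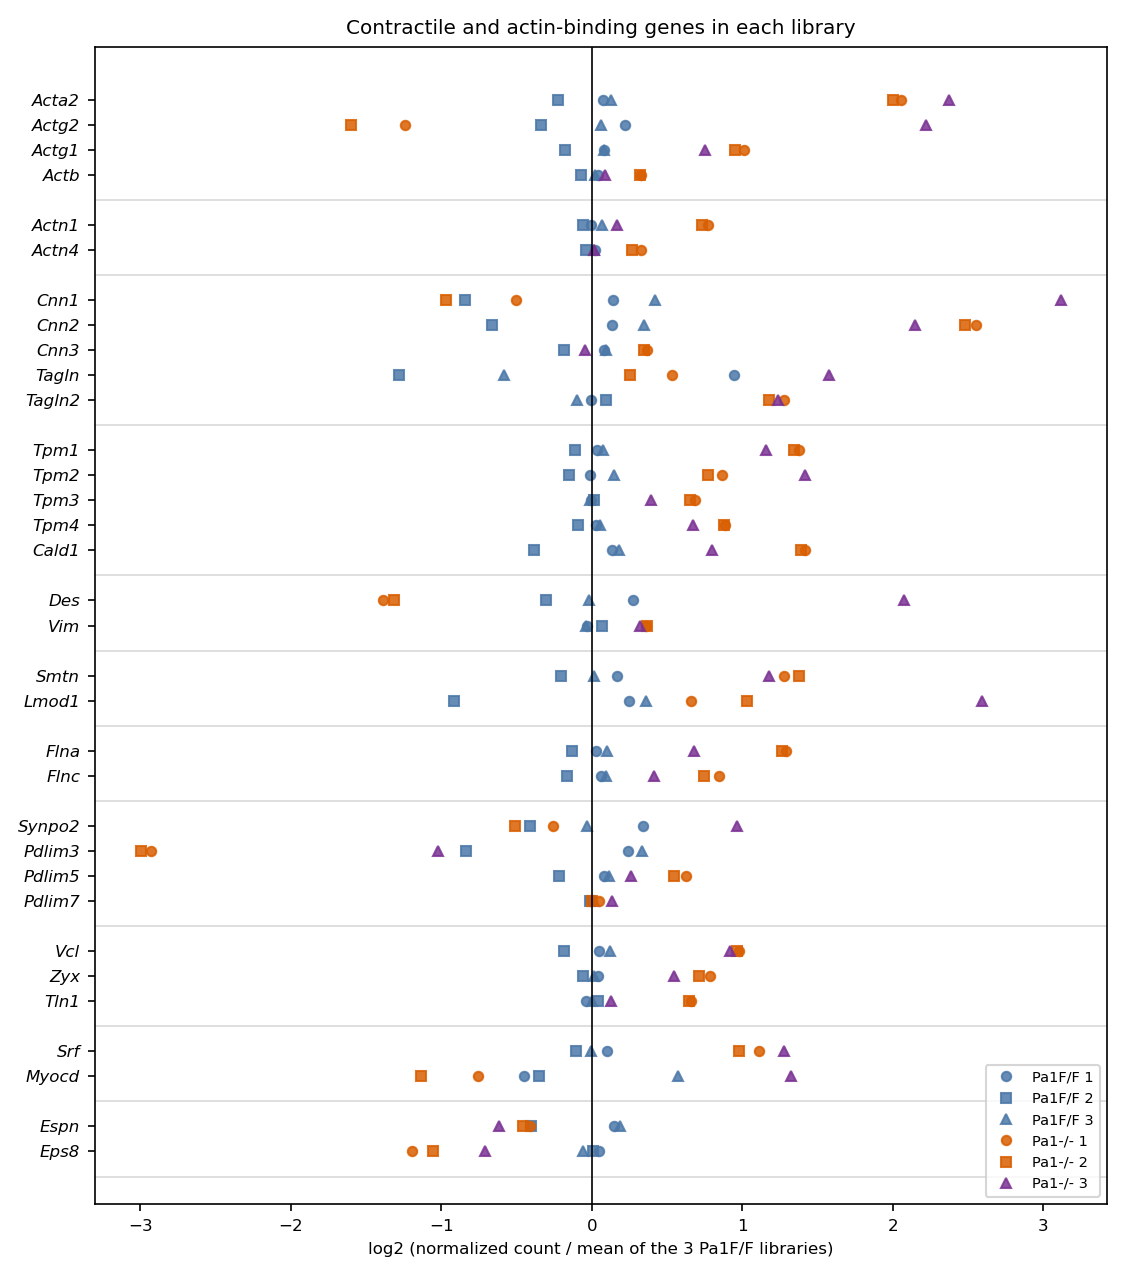
Log2 ratio of the normalized count of each member in each library to the mean of the 3 Pa1F/F libraries, with genes in rows grouped by role; blue symbols are Pa1F/F replicates 1 to 3, orange symbols are Pa1-/- replicates 1 and 2 and purple triangles are Pa1-/- replicate 3. Acta2, Cnn2, Tagln2, Tpm1 and Srf lie to the right of all Pa1F/F libraries in the 3 Pa1-/- libraries, while for Actg2, Cnn1, Des and Myocd replicates 1 and 2 lie to the left of 0 and replicate 3 lies far to the right.

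Among the actins, Acta2 and Actg1 rose in Pa1-/- Sertoli cells. Acta2 (ENSMUSG00000035783, chr19:34241090-34255336), the actin of vascular smooth muscle and myoid cells, had 3129, 2537 and 3239 normalized counts in Pa1F/F replicates 1 to 3 and 12312, 11886 and 15383 in Pa1-/- replicates 1 to 3. Every Pa1-/- library was above every Pa1F/F library, with replicate 3 the highest. The log2 fold change was 2.15 with a standard error (SE) of 0.14 and an edgeR adjusted p of 0.000169, and it was 2.03 without Pa1-/- replicate 3. Actg1 (chr11:120345690-120348542), the cytoplasmic gamma-actin, had 21889.9, 18261 and 21906 normalized counts in Pa1F/F and 41681, 39901 and 34871 in Pa1-/-. Its groups did not overlap and it rose by a log2 fold change of 0.91 (SE 0.12, edgeR adjusted p = 0.00180). Actb, the cytoplasmic beta-actin, had 27492, 25457 and 27150.3 normalized counts in Pa1F/F and 33425, 33404 and 28359.9 in Pa1-/-, and its difference did not pass the test (log2 fold change 0.25, SE 0.10, edgeR adjusted p = 0.0901). Without Pa1-/- replicate 3, Actb passed with a log2 fold change of 0.33 (edgeR adjusted p = 0.00422). The coding sequences of the actin genes are near-identical, so how reads were divided among them is uncertain.

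Actg2, the gamma-actin of enteric smooth muscle, did not follow Acta2. It had 183, 124 and 164 normalized counts in Pa1F/F and 66.4, 51.8 and 730.4 in Pa1-/-. Replicates 1 and 2 of Pa1-/- were below every Pa1F/F library and replicate 3 was above all of them. Over the 6 libraries its log2 fold change of 0.85 (SE 0.95) did not pass (edgeR adjusted p = 0.522), and without Pa1-/- replicate 3 it was -1.40 (adjusted p = 0.00234).

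The share of each actin in the summed actin counts was read within each library. Acta2 took 5.94%, 5.47% and 6.17% of the summed actin counts in Pa1F/F and 14.1%, 13.9% and 19.4% in Pa1-/-. The share of Actb was 52.9% ± 1.70 in Pa1F/F and 37.7% ± 1.77 in Pa1-/-, and that of Actg1 was 40.9% ± 1.32 and 46.1% ± 1.94 (SD, n = 3 each). The groups did not overlap for these 3 shares, each with p = 0.1 in an exact two-sided permutation test, the smallest p that 3 against 3 allows. Per kilobase of canonical transcript, Actb was the highest of the 33 members in Pa1F/F (13906 ± 568 normalized counts per kb) and Actg1 in Pa1-/- (17636 ± 1605), whereas Acta2 moved from rank 16 (1065 ± 135) to rank 9 (4732 ± 684).

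Calponins and the related transgelins bind along actin filaments, and calponin restrains the myosin ATPase. The calponins split by isoform. Cnn2 (chr10:79988584-79996062), the non-muscle calponin, had 1249.6, 720.4 and 1450.5 normalized counts in Pa1F/F and 6671, 6362 and 5038 in Pa1-/-. Its groups were far apart, and its log2 fold change of 2.40 (SE 0.26, edgeR adjusted p = 0.000948) was the highest of the members. Cnn1, the calponin of differentiated smooth muscle, had 53.5, 27.1 and 65.0 normalized counts in Pa1F/F and 34.2, 24.8 and 421 in Pa1-/-. It was high in Pa1-/- replicate 3 only, and the difference did not pass (log2 fold change 1.72, SE 1.06, edgeR adjusted p = 0.248, and -0.70 with adjusted p = 0.195 without that library). Cnn3, the acidic calponin, had 7798, 6487 and 7865 normalized counts in Pa1F/F and 9505, 9392 and 7168 in Pa1-/-, with overlapping groups (log2 fold change 0.23, SE 0.13, edgeR adjusted p = 0.208), and passed without Pa1-/- replicate 3 (0.36, adjusted p = 0.0138). Of the calponin counts, Cnn2 took 13.7%, 9.96% and 15.5% in Pa1F/F and 41.2%, 40.3% and 39.9% in Pa1-/-. Cnn3 took 86.4% ± 2.98 and 58.3% ± 1.41 (SD, n = 3 each), and the exact permutation p was 0.1 for both.

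Tagln2 (chr1:172500047-172507380), the transgelin of non-muscle cells, took 99.8% of the transgelin counts in Pa1F/F replicate 1, its lowest share. It had 4309.6, 4614 and 4033 normalized counts in Pa1F/F and 10484, 9784 and 10171 in Pa1-/-. Tagln2 rose by a log2 fold change of 1.23 (SE 0.07, edgeR adjusted p = 0.000119), with the 3 Pa1-/- libraries close to each other.

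The tropomyosins, which form coiled coils along the groove of the filament, rose together, and so did caldesmon, which links actin to myosin and tropomyosin. Tpm1 (chr9:67022590-67049406) had 11558, 10462 and 11899.7 normalized counts in Pa1F/F and 29334, 28736 and 25199 in Pa1-/-, with a log2 fold change of 1.30 (SE 0.10, edgeR adjusted p = 0.000250). Tpm2, the beta-tropomyosin of muscle, had 758, 690.4 and 848 normalized counts in Pa1F/F and 1396, 1310.2 and 2041 in Pa1-/-, with a log2 fold change of 1.05 (SE 0.18, edgeR adjusted p = 0.00507). Its highest value was in Pa1-/- replicate 3, whereas Tpm1, Tpm3, Tpm4 and Cald1 had their lowest Pa1-/- value there. Tpm4 had 10905, 10044 and 11118 normalized counts in Pa1F/F and 19768, 19689 and 17004 in Pa1-/-, with a log2 fold change of 0.82 (SE 0.09, edgeR adjusted p = 0.000969). Tpm3 had 7762, 7869 and 7732 normalized counts in Pa1F/F and 12519.8, 12237 and 10206 in Pa1-/-, with a log2 fold change of 0.58 (SE 0.09, edgeR adjusted p = 0.00350). Within the tropomyosin counts the shares did not overlap between the groups for Tpm1, Tpm3 and Tpm4. The share of Tpm1 in the tropomyosin counts was 37.0% ± 0.877 in Pa1F/F and 46.4% ± 0.137 in Pa1-/-, while the shares of Tpm3 (25.5% ± 1.37 and 19.5% ± 0.616) and Tpm4 (35.0% ± 0.365 and 31.5% ± 0.281) were lower in Pa1-/- (SD, n = 3 each, exact permutation p = 0.1 for each). The Tpm2 share was 2.50% ± 0.162 and 2.69% ± 0.916 (exact permutation p = 1). Cald1 (chr6:34598500-34775473) had 18480 normalized counts in Pa1F/F replicate 1, 12936 in replicate 2 and 19131 in replicate 3, and 45051, 44157 and 29313 in Pa1-/-. Its log2 fold change was 1.23 (SE 0.22, edgeR adjusted p = 0.00590), and replicate 3 was again the lowest of the Pa1-/- libraries.

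**Figure D2:**
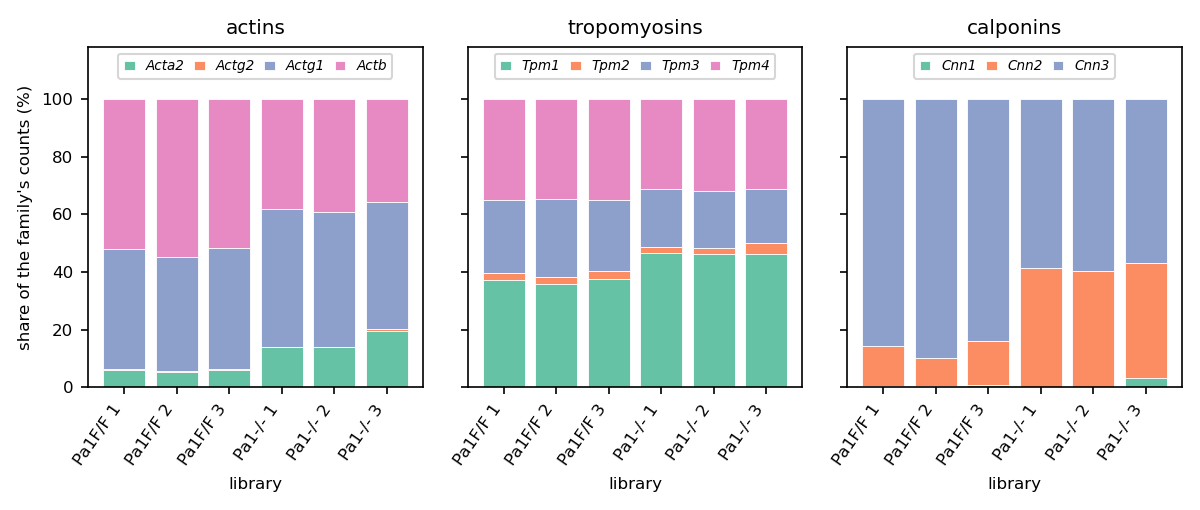
Share of the summed counts of the actins, the tropomyosins and the calponins taken by each gene in each of the 6 libraries, as stacked bars that add to 100%. The Acta2 share is at most 6.17% in Pa1F/F and at least 13.9% in Pa1-/- libraries, and the Cnn2 share is at most 15.5% and at least 39.9%.

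In all, 17 shares were compared over 6 families, and 12 of them were at the smallest possible p of 0.1, which is 0.142 after Benjamini-Hochberg adjustment of these exact permutation tests, so none passed. The alpha-actinins and filamins were among them. Actn1 took 42.2% ± 0.776 of the alpha-actinin counts in Pa1F/F and 48.3% ± 3.07 in Pa1-/-, and Flna took 94.8% ± 0.124 and 96.0% ± 0.340 of the filamin counts. The shares of a family add up to the whole, so the tests are not independent. For the transgelins, alpha-actinins and filamins, the shares of both genes mirror each other and repeat the same test. A share within a library does not depend on the scaling between libraries.

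The cross-linkers of the stress fibre were higher in part. Flna (chrX:74223461-74249820), which encodes the filamin that joins actin filaments into networks, had 17478, 15679 and 18381 normalized counts in Pa1F/F and 41991, 41172 and 27500.3 in Pa1-/-. It rose by a log2 fold change of 1.10 (SE 0.17, edgeR adjusted p = 0.00392). Flnc, the muscle filamin, had 985, 840.4 and 1007 normalized counts in Pa1F/F and 1696, 1584 and 1254 in Pa1-/- (log2 fold change 0.68, SE 0.13, edgeR adjusted p = 0.00732). For both filamins the groups were apart and Pa1-/- replicate 3 lay nearest to Pa1F/F. Actn1, the alpha-actinin of stress fibres and focal adhesions, had 6831, 6586 and 7193 normalized counts in Pa1F/F and 11744, 11419 and 7706 in Pa1-/- (log2 fold change 0.58, SE 0.16, edgeR adjusted p = 0.0286). Actn4 had 9567, 9161 and 9504 normalized counts in Pa1F/F and 11815, 11315 and 9522 in Pa1-/-, and did not pass (log2 fold change 0.21, edgeR adjusted p = 0.119). In both alpha-actinin genes Pa1-/- replicate 3 was close to the Pa1F/F libraries. Without it, Actn4 passed (log2 fold change 0.30, edgeR adjusted p = 0.00204), whereas Actn1 did not pass when any other library was left out (edgeR adjusted p between 0.0730 and 0.0883).

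Of the genes that mark contractile smooth muscle, Smtn and Lmod1 were higher in all Pa1-/- libraries, though Lmod1 did not pass the test. The direction of Des depended on the library. Smtn (chr11:3517523-3540612), which encodes smoothelin, a protein of contractile filaments, had 539, 416 and 486 normalized counts in Pa1F/F and 1165, 1246 and 1085 in Pa1-/-. The groups did not overlap and the log2 fold change was 1.28 (SE 0.11, edgeR adjusted p = 0.000444). Lmod1, whose product leiomodin nucleates actin filaments in smooth muscle, had 143, 63.9 and 155 normalized counts in Pa1F/F and 190.3, 247 and 728 in Pa1-/-. Its groups did not overlap, and yet the difference did not pass (log2 fold change 1.69, SE 0.57, edgeR adjusted p = 0.0593, and 0.86 with adjusted p = 0.0828 without Pa1-/- replicate 3). It passed without Pa1-/- replicate 1 (2.02, edgeR adjusted p = 0.0431). Des, the intermediate filament of muscle, had 139, 93.0 and 113 normalized counts in Pa1F/F and 43.9, 46.2 and 485 in Pa1-/-. Like Actg2, it was lower in Pa1-/- replicates 1 and 2 than in any Pa1F/F library and higher in replicate 3, with a log2 fold change of 0.74 (SE 0.90, edgeR adjusted p = 0.558) over the 6 libraries and -1.35 (adjusted p = 0.00275) without replicate 3. Vim, the intermediate filament of mesenchymal cells and of Sertoli cells, had 27219.9, 29198 and 27162 normalized counts in Pa1F/F and 35806, 35895 and 34779.6 in Pa1-/- (log2 fold change 0.35, SE 0.08, edgeR adjusted p = 0.0155). The Vim call was lost without replicate 1 or 3 of Pa1F/F and without replicate 1 or 2 of Pa1-/- (edgeR adjusted p between 0.0521 and 0.0655).

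Synaptopodin-2 and the PDZ-LIM proteins tie alpha-actinin to actin filaments, and of these 4 genes Pdlim3 fell, Pdlim5 rose and Pdlim7 and Synpo2 did not pass. Pdlim3 (chr8:45885461-45919548), which encodes the actinin-associated LIM protein of muscle, fell. It had 201, 95.9 and 215 normalized counts in Pa1F/F and 22.5, 21.4 and 84.2 in Pa1-/-, so the groups were apart by a narrow gap between Pa1F/F replicate 2 and Pa1-/- replicate 3. Its log2 fold change was -1.99 (SE 0.58, edgeR adjusted p = 0.0358), and it was -2.95 (adjusted p = 0.00146) without Pa1-/- replicate 3. The Pdlim3 call was lost without replicate 1 or 3 of Pa1F/F and without replicate 1 or 2 of Pa1-/- (edgeR adjusted p of up to 0.107). Pdlim5 had 2839, 2303 and 2906 normalized counts in Pa1F/F and 4145, 3916 and 3212 in Pa1-/-, and rose by a log2 fold change of 0.49 (SE 0.12, edgeR adjusted p = 0.0232), which was lost without replicate 1 or 2 of either genotype (adjusted p between 0.0542 and 0.0747). Pdlim7 lay between 2423 and 2472 normalized counts in Pa1F/F and between 2452 and 2686 in Pa1-/-, with a log2 fold change of 0.06 (SE 0.05, edgeR adjusted p = 0.380). Synpo2 had at most 25.0 normalized counts in any library and did not pass (log2 fold change 0.22, SE 0.46, edgeR adjusted p = 0.743).

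The linkers between integrins and actin filaments rose, each by less than a log2 fold change of 1. Vcl (chr14:20929398-21033676), the gene of vinculin, had 7957, 6751 and 8334 normalized counts in Pa1F/F and 15117, 14978 and 14482 in Pa1-/-, with a log2 fold change of 0.95 (SE 0.09, edgeR adjusted p = 0.000657). Zyx, whose product zyxin is recruited to stress fibres under tension, had 8411, 7864 and 8246 normalized counts in Pa1F/F and 14115, 13399 and 11954 in Pa1-/- (log2 fold change 0.69, SE 0.08, edgeR adjusted p = 0.00132). Tln1, the gene of talin, had 12195, 12880.4 and 12551 normalized counts in Pa1F/F and 19819, 19645 and 13729 in Pa1-/- (log2 fold change 0.50, SE 0.15, edgeR adjusted p = 0.0358). The Vcl libraries of Pa1-/- lay close together, whereas Tln1 in Pa1-/- replicate 3 came near to Pa1F/F. The Tln1 call was lost when any library but that one was left out (edgeR adjusted p between 0.0697 and 0.110). Vcl, Tln1, Zyx and Tpm4 overlap genes on the opposite strand as well, among them Ap3m1, Creb3, Epha1 and Gm16091. In this order, the overlapping genes held 9224, 18401, 283 and 800 counts over the 6 libraries. Pcsk7 held 2782 counts over the libraries, beside at most 14 Tagln counts in any library. The members here held far more counts than their overlapping genes, so the doubt about their reads is smaller than for Tagln.

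The regulators Srf and Myocd differed in pattern. Srf (ENSMUSG00000015605, chr17:46546839-46556162) had 609.8, 529.6 and 566 normalized counts in Pa1F/F and 1226, 1121 and 1379 in Pa1-/-, without overlap. It rose by a log2 fold change of 1.13 (SE 0.10, edgeR adjusted p = 0.000453), and by 1.05 without Pa1-/- replicate 3. Myocd, the cofactor of SRF that is restricted to cardiac and smooth muscle, had 12, 12 and 21 counts in Pa1F/F and 9, 6 and 37 counts in Pa1-/-. These few counts were highest in Pa1-/- replicate 3 and the difference did not pass (log2 fold change 0.26, SE 0.68, edgeR adjusted p = 0.790).

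The actin bundlers of the ectoplasmic specialization fell. Eps8 (chr6:137477245-137654876) had 1236, 1198 and 1146 normalized counts in Pa1F/F and 522, 573 and 728 in Pa1-/-, with a log2 fold change of -0.97 (SE 0.12, edgeR adjusted p = 0.00184). Espn (chr4:152120331-152152371) had 4649, 3169 and 4774 normalized counts in Pa1F/F and 3159.7, 3055 and 2739 in Pa1-/-. Its log2 fold change was -0.49 (SE 0.16, edgeR adjusted p = 0.0487), and Pa1F/F replicate 2 was barely above the highest Pa1-/- library. Without Pa1-/- replicate 3 the Espn difference did not pass (log2 fold change -0.43, adjusted p = 0.0757), nor did it when any other library but Pa1F/F replicate 2 was left out (adjusted p between 0.0927 and 0.158). Per kilobase, Espn went from rank 17 to rank 20 of the 33 members and Eps8 from rank 21 to rank 26.

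**Figure D3:**
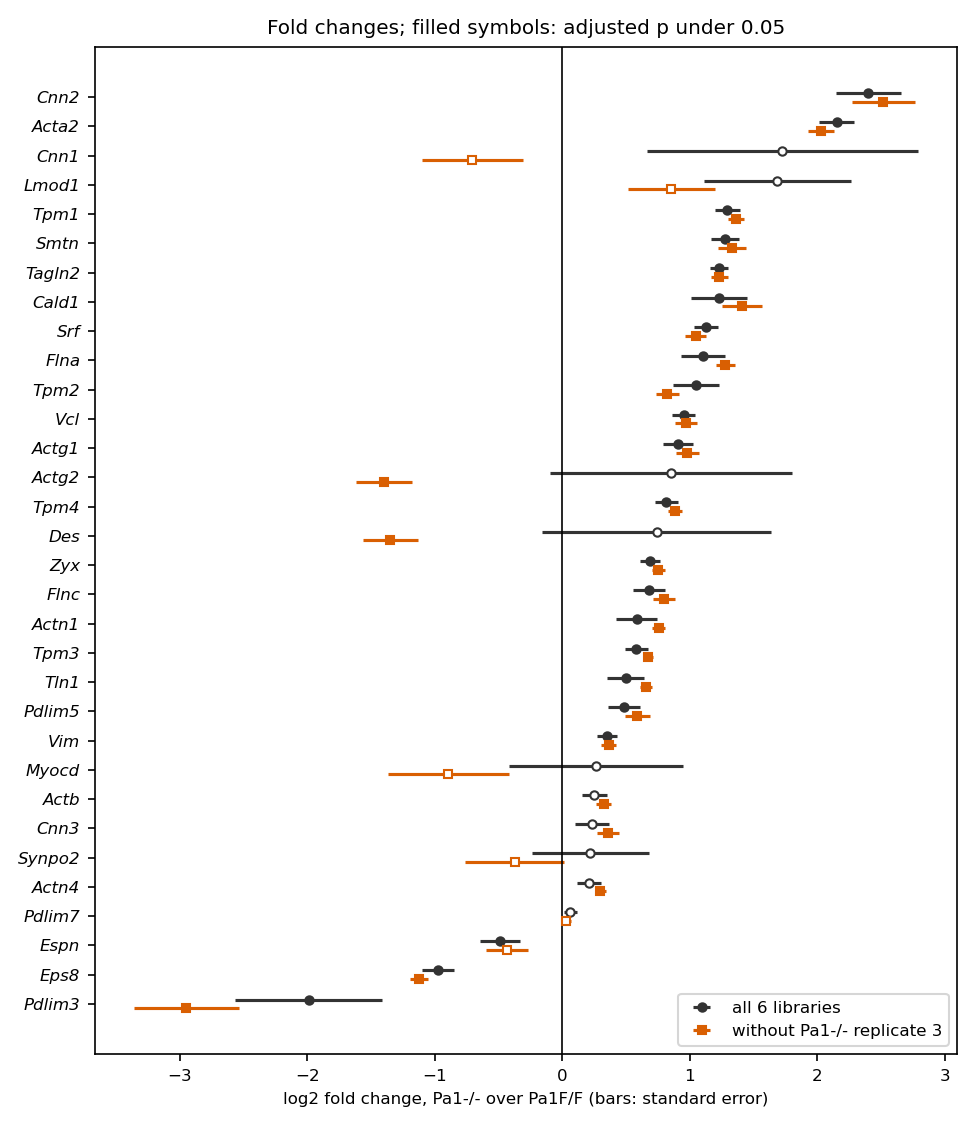
Log2 fold change of Pa1-/- over Pa1F/F for the 32 tested members, sorted by its value over all 6 libraries, with bars for the standard error. Dark circles use all 6 libraries and orange squares leave out Pa1-/- replicate 3, and filled symbols pass an adjusted p-value of 0.05. Cnn2 (2.40) and Acta2 (2.15) lie farthest to the right, Pdlim3 (-1.99) farthest to the left, and the sign differs between the symbols for Cnn1, Actg2, Des, Myocd and Synpo2.

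Pa1-/- replicate 3 stood apart from the other Pa1-/- libraries in a set of smooth muscle genes, which was picked out after its values were seen and is given as a description. As compared with the mean of replicates 1 and 2, the normalized count in replicate 3 was 14.3-fold for Cnn1, 12.4-fold for Actg2, 10.8-fold for Des, 4.77-fold for Myocd, 3.84-fold for Pdlim3, 3.33-fold for Lmod1, 2.54-fold for Synpo2 and 2.25-fold for Tagln. Pdlim3 differed from the others in that its replicate 3 was still below every Pa1F/F library. For Acta2 it was 1.27-fold, and Tagln2 in replicate 3 lay between the other Pa1-/- libraries. In all, replicate 3 lay above both other Pa1-/- libraries for 13 members, below both for 19 and between them for 1, Tagln2. Over all genes, replicates 1 and 2 were close (chi-square per degree of freedom 1.68, against 31.6 and 29.6 with replicate 3). A place outside this close pair may thus be common in the whole table, and its share over all genes was not counted. Myh11, the myosin heavy chain of smooth muscle, had 649, 481 and 580.0 normalized counts in Pa1F/F and 216, 164 and 1605 in Pa1-/-. Kcnmb1, a potassium channel subunit of smooth muscle, had 29.9, 32.0 and 42.0 normalized counts in Pa1F/F and 9.76, 7.89 and 97.2 in Pa1-/-. Both had the pattern of Actg2 and Des, lowest in Pa1-/- replicates 1 and 2 and highest in replicate 3.

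**Figure D4:**
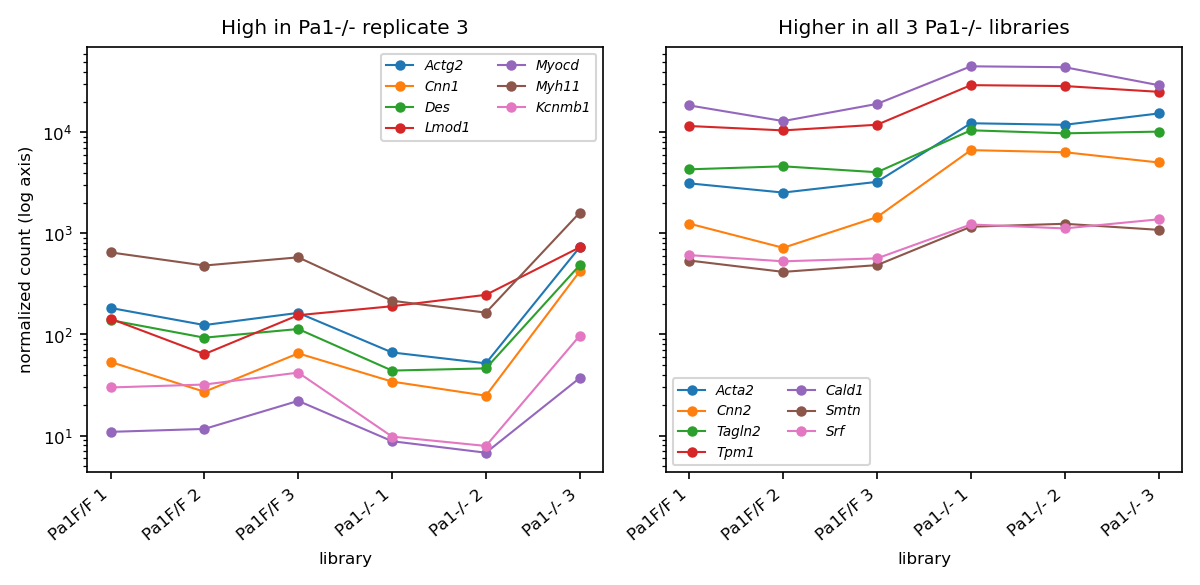
Normalized counts on a log axis in each of the 6 libraries for genes that were high in Pa1-/- replicate 3 (left, with the markers Myh11 and Kcnmb1) and for genes that were higher in all 3 Pa1-/- libraries (right), where a line joins the points of 1 gene. Des stood at 43.9 and 46.2 in Pa1-/- replicates 1 and 2 and at 485 in replicate 3, whereas Tagln2 stood between 9784 and 10484 in all 3.

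Markers of other cells of the testis were read beside these results. Of 7 markers of peritubular myoid and smooth muscle cells, 2 rose and 2 fell. Their summed level lay between 455 and 531 CPM in Pa1F/F and between 1117 and 1238 CPM in Pa1-/-, and none was at 0 in any library. Most counts of the list came from Myl9 and Mylk, the regulatory light chain of myosin and its kinase, which are also expressed outside muscle. Myl9 had 3452, 2389.6 and 3498 normalized counts in Pa1F/F and 11585, 11209 and 9870.5 in Pa1-/- (log2 fold change 1.81, SE 0.16, edgeR adjusted p = 0.000476). Mylk rose by a log2 fold change of 1.03 (SE 0.12, adjusted p = 0.00130), while Ptch1 fell by 0.33 and Ppp1r14a fell by 2.77. Without Pa1-/- replicate 3, 2 of the 7 were higher and 5 were lower, with Myh11 at a log2 fold change of -1.58 (adjusted p = 0.000484) and Kcnmb1 at -1.94 (adjusted p = 0.00311), which did not pass over the 6 libraries. In these bulk samples, fewer cells of a type and less RNA per cell cannot be told apart, and the part of peritubular myoid cells in the rise of Acta2 and the other members was not tested.

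Of the tested markers, 1 of 5 for pericytes rose (Mcam) and 2 fell, 2 of 6 for interstitial fibroblasts, 2 of 3 for endothelium, 3 of 5 for macrophages, 3 of 3 for Leydig cells and 1 of 2 for germ cells fell, and none of the last 5 lists had a member that rose over the 6 libraries. Without Pa1-/- replicate 3, 3 pericyte markers fell and 1 rose, 4 of 7 fibroblast markers and 5 of 6 macrophage markers fell, and the macrophage marker Mrc1 rose (log2 fold change 0.28, edgeR adjusted p = 0.00813), while the counts for endothelium, Leydig cells, germ cells and mesothelium did not move. Interstitial fibroblast markers summed to between 2110 and 2548 CPM in Pa1F/F and to 1282, 1265 and 2378 CPM in Pa1-/- replicates 1 to 3, so replicate 3 was high in these as well. Pericyte markers summed to between 406 and 455 CPM in Pa1F/F and to 288, 277 and 450 CPM in Pa1-/- replicates 1 to 3. Endothelial markers lay between 116 and 121 CPM in Pa1F/F and between 62.4 and 100 CPM in Pa1-/-, macrophage markers between 91.0 and 96.5 CPM and between 69.2 and 90.2 CPM, Leydig cell markers between 794 and 911 CPM and between 165 and 288 CPM, and germ cell markers between 3.02 and 3.99 CPM and between 1.66 and 6.00 CPM. Most of these counts came from Cdh5 for endothelium, Mrc1 for macrophages, and Star and Cyp11a1 for Leydig cells. Mrc1 did not pass over the 6 libraries, whereas the less abundant macrophage markers Adgre1, Csf1r and Cd68 fell (log2 fold changes -3.38, -2.49 and -1.65). The summed macrophage level therefore mostly followed Mrc1. Defining genes of several lists were at or near 0 in both genotypes, among them the Leydig cell gene Insl3, with 2, 1 and 0 counts in Pa1F/F and 0 in each Pa1-/- library. Of 5 mesothelial markers, 3 rose (Upk3b, Krt19 and Lrrn4), from a summed 6.72 to 11.6 CPM in Pa1F/F to between 30.0 and 38.6 CPM in Pa1-/-. Of 10 tested Sertoli cell markers none rose and 3 fell (Gata4, Clu and Inha) over the 6 libraries. Without Pa1-/- replicate 3, 6 fell, with Amh (-2.16), Cldn11 (-0.52) and Rhox8 (-1.83) added, and Wt1 rose (log2 fold change 0.26, edgeR adjusted p = 0.00180), while Sox9, Dhh and Fshr did not pass in either fit. Their summed levels were 16110 to 16398 CPM in Pa1F/F and 9505 to 12384 CPM in Pa1-/-, and most of these counts came from Clu, with 192489 to 194105 normalized counts in Pa1F/F and 105693 to 146325 in Pa1-/-. The part of these differences in the members' values was not tested.

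The other genes of the actin cytoskeleton were read from 3 lists. Of 28 genes that bundle, branch or cap actin or link it to the membrane, 13 rose and 1, Rdx, fell, with a median log2 fold change of 0.20, as compared with 18.2% higher and 17.1% lower over all tested genes. Leaving out Pa1-/- replicate 3, 16 rose and 3 fell. Fscn1, the gene of the bundling protein fascin, had 524, 474 and 568 normalized counts in Pa1F/F and 1753, 1585 and 1276 in Pa1-/- (log2 fold change 1.56, SE 0.13, edgeR adjusted p = 0.000419). Pls1, one of the plastins, which bundle filaments, had 195, 192 and 171 normalized counts in Pa1F/F and 520.3, 488 and 357 in Pa1-/- (log2 fold change 1.29, SE 0.16, edgeR adjusted p = 0.00154). Both were higher in every Pa1-/- library, while the bundlers Espn and Eps8 fell.

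Of 17 tested focal adhesion partners of vinculin, zyxin and talin, 8 rose and 1, Tns1, fell, with a median log2 fold change of 0.43, beside the same 18.2% and 17.1% of all tested genes. With Pa1-/- replicate 3 left out, 12 rose and 3 fell. Lims2, which encodes a LIM-domain partner of integrin-linked kinase, had 59.8, 24.2 and 59.8 normalized counts in Pa1F/F and 182, 208 and 140.3 in Pa1-/- (log2 fold change 1.88, SE 0.34, edgeR adjusted p = 0.00667). Tes had 1032, 1005 and 1029 normalized counts in Pa1F/F and 2560.4, 2378 and 2111 in Pa1-/- (log2 fold change 1.20, edgeR adjusted p = 0.000169). Tgfb1i1, whose product HIC-5 is a paxillin relative, had 443, 418 and 469.9 normalized counts in Pa1F/F and 917, 821 and 1117 in Pa1-/- (log2 fold change 1.10, edgeR adjusted p = 0.00110). The 3 genes did not overlap between the groups.

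Of 26 relatives of the members in the same gene families, 15 passed the filter, 3 rose and none fell, with a median log2 fold change of 0.05, and 3 of 15 is close to the 18.2% of all tested genes that were higher. In the fit without Pa1-/- replicate 3, 3 of 16 rose and 2 fell. Among the genes that rose were Pdlim1 (log2 fold change 0.55, SE 0.11, edgeR adjusted p = 0.0100), a PDZ-LIM relative of Pdlim3 and Pdlim5, and Lpp (0.57, SE 0.13, adjusted p = 0.0143), a relative of zyxin. Pdlim1 had 2303, 2144 and 2113 normalized counts in Pa1F/F and 3020.1, 2813 and 3780.5 in Pa1-/-, and Lpp had 2348, 2375 and 2600.0 in Pa1F/F and 3979, 3989 and 2904 in Pa1-/-. The groups did not overlap for either gene, and Pa1-/- replicate 3 was the highest Pa1-/- library for Pdlim1 and the lowest for Lpp. Acta1, the actin of skeletal muscle, held at most 1 count in any library, and Actc1, the cardiac actin, held 2, 6 and 4 counts in Pa1F/F and 15, 8 and 22 in Pa1-/-, too few to be tested.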

How the data were processed

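RNA-seq libraries were made from total RNA of Sertoli cells, 3 Pa1F/F and 3 Pa1-/-, grouped by their labels. According to the methods and the submitters' processing notes, the authors used HISAT2 2.1.0 for alignment to GRCm38 and HTSeq 0.6.0 for counting, and they deposited raw counts per gene. The table also holds the authors' own comparison (means, fold changes and p-values), which was not used.

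Low counts were removed by filterByExpr (at least 10 counts, at least 15 in total). TMM scaling, which centres most genes on no change, was followed by the quasi-likelihood test of edgeR 4.0.16 in R 4.3.3. The Benjamini-Hochberg adjustment ran over all 14919 tested genes, and adjusted p-values in the text come from edgeR. DESeq2 1.42.0 and limma 3.58.1 served as alternatives. Shares of a family were compared by an exact two-sided permutation test. Transcript lengths came from GENCODE canonical transcripts. Floors cover counting error only, since reads carry no molecular identifiers. The steps were tested on simulated data.

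The members and lists were chosen with earlier results of these data known. Named are all members and, of each pathway list, the genes past an adjusted p of 0.05 and a log2 fold change of 1 in size. Other list genes were named after their values were seen. A pathway list and a list gene are not reported here.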

Additional observations from a re-analysis of the deposited data

How the results depend on the processing

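The 22 called members kept their direction under all 14 alternatives, and 12 of them, 11 higher and 1 lower (Eps8), passed the threshold under each. Actn1, Vim, Pdlim3, Pdlim5, Tln1 and Espn lost it under several, among them single libraries left out, and Tpm3, Cald1, Flna and Flnc lost it when the close pairs of replicates were summed. Leaving out 1 library at a time, the log2 fold change of Actg2 lay between -1.40 and 1.36 and that of Des between -1.35 and 1.22, both reversed without Pa1-/- replicate 3. Over the same 6 fits, 15 to 22 members were higher and 1 to 4 were lower, 0 to 4 of them past the fold threshold, with the most lower members without Pa1-/- replicate 3. Higher and lower genes numbered 1761 to 3360 and 1689 to 3257 among all genes, 2 to 5 and 0 to 2 among family relatives, 9 to 16 and 0 to 3 in the bundling list and 7 to 12 and 0 to 3 among focal adhesion partners, with the highest counts of lower genes each time without Pa1-/- replicate 3.

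With the close pairs summed, which leaves 2 libraries a group, 708 genes were higher and 674 lower (428 and 455 past the fold threshold), 11 members were higher and 1 was lower (0 past the fold threshold), and the lists held 0 higher relatives, 8 higher and 0 lower bundling genes and 4 higher and 0 lower focal adhesion partners. By glmTreat, which tests against a log2 fold change of 1, 232 genes were higher and 306 lower, with 3 higher and 0 lower members. With no filter beyond 1 count in total, 5 relatives were higher and 0 bundling genes lower, beside 2802 higher and 2412 lower among all genes. With library size alone 0 bundling genes were lower, beside 2464 of all genes. By DESeq2's Wald test 2 focal adhesion partners were lower, beside 2532 of all genes.

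Same-numbered libraries of the genotypes deviated with correlations of 0.108, -0.164 and -0.179, so the numbers do not pair them. Across other numbers, Pa1F/F replicate 2 deviated with Pa1-/- replicate 3 (correlation 0.214). Pa1F/F replicates 1 and 3 deviated with Pa1-/- replicates 1 and 2 (0.108 to 0.150), and the remaining pairs were negative (-0.179 to -0.141). A block by replicate number does not cover this pattern, whose source was not tested. With the replicate number as a block, 1917 of all genes were higher and 1885 lower. Among the members 16 were higher and 2 lower, with 0 lower bundling genes and 0 lower focal adhesion partners. The causes of these changes were not tested. At these depths Tagln could not be tested, and Myocd and Synpo2 rest on few counts.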
